A study of Mus musculus with 8 samples.

Results

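Adipokines are hormones and other proteins that fat cells secrete. The set described here holds 9 of them, Adipoq, Retn, Cfd, Lep, Rarres2, Rbp4, Apln, Nampt and Ghrh, taken by gene symbol from a table of 22798 genes, and all 9 were found. Their transcripts were followed in 3T3-L1, a mouse fibroblast-like line of Swiss albino origin that hormones can turn into fat cells. The 8 RNA-seq libraries fall into 4 stages of 2 libraries: exponential proliferation, quiescence after 48 hours at confluence, clonal expansion 10 hours after an adipogenic cocktail, and differentiation 6 days after it. Proliferating and quiescent cells had received no cocktail. The labels give the cocktail as insulin (5 µg/µl as written, a unit that could not be checked and may be a slip), the glucocorticoid dexamethasone (1 µM) and isobutylmethylxanthine (0.25 mM), which raises cyclic AMP, for 48 hours, followed by insulin alone, so the differentiated cells had been without the other agents for days. All libraries come from the same cell line, a model of fat cell formation in culture without blood vessels, nerves or immune cells. The titles number the paired libraries of a stage as exp. #1 and exp. #2. Whether these are independent cultures is not stated further by the labels. The p-values therefore measure only how far these libraries spread, and that spread may be technical.

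Adiponectin (Adipoq) is a collagen-like hormone that acts through the receptors Adipor1 and Adipor2 and is known for raising insulin sensitivity. Leptin (Lep) reports fat stores to the brain, resistin (Retn) opposes insulin action in mice, and adipsin (Cfd) is complement factor D, the protease that starts the amplification loop of the alternative complement pathway. Chemerin (Rarres2) is a chemoattractant that binds Cmklr1, Rbp4 carries retinol in blood, and apelin (Apln) is a peptide that binds Aplnr. Nampt is the rate-limiting enzyme of NAD salvage and is also found outside cells, where it has been called visfatin. Ghrh, growth hormone-releasing hormone, is best known as a hypothalamic peptide that acts on the pituitary and is not a classical fat-cell product.

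Values are pseudo-counts, read counts adjusted by the authors so that libraries can be compared, and their sum per library was 122413485 to 151529060. Values near 0, such as 0.00644 for Ghrhr in the first differentiated library, come from that adjustment and are not scaled reads. Across tested genes the 2 libraries of a stage correlated with r of 0.9929 to 0.9957 on the log2 scale, lowest at quiescence. From quiescence to differentiation the markers of fat cells and preadipocytes followed the labels: 8 of 8 fat cell markers rose and 8 of 8 preadipocyte or fibroblast markers fell. All 8 fat cell markers were also higher than at clonal expansion and proliferation. Of the 8 preadipocyte markers, 4 were lower, 1 higher and 3 not called against clonal expansion, and 6 were lower and 1 higher against proliferation. The fat cell markers summed to 4458524 and 4804892 in the differentiated libraries and to 60438 to 142990 in the others, while the preadipocyte markers were still at 1267491 and 1522788 at differentiation. Lpl was the largest part of the fat cell sum before differentiation, at 52890 to 132166. Col3a1 was the largest part of the preadipocyte sum at differentiation, at 817290 and 980873. In these bulk samples, fewer cells of a type and less RNA per cell cannot be told apart. Of 7 macrophage and blood markers, Ptprc and Emr1 were at most 2.73 in any library, and the list summed to 1199 and 1254 at differentiation against 3247 to 6813 elsewhere. Most of that sum came from Lyz2 and Cd14, at 1314 to 4318 and 1152 to 2004 before differentiation. Cd68 was at 237 to 402 in every library, and Csf1r was at 131 to 201 before differentiation.

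The windows before the transcription start of the 5 genes with the largest rises after clonal expansion are shown, so that their promoters can be compared. They are the 250 bases before a RefSeq start in GRCm38.p6, a later build than the mm9 of the deposited table, for Adipoq at chr16:23146286-23146535, Retn at chr8:3655520-3655769, Cfd at chr10:79890603-79890852, Lep at chr6:29059971-29060220 (all + strand) and the downstream of 2 listed starts of Ghrh at chr2:157337427-157337676 (- strand). Capitals mark matches, on either strand, to CCAAT, the C/EBP-type site TTGCNNAA, the nuclear receptor half-site AGGTCA and TATAAA.
Adipoq: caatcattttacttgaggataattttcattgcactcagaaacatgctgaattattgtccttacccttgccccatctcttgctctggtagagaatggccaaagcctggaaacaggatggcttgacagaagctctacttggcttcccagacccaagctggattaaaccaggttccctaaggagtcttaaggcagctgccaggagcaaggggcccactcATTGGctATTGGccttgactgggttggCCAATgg
Retn: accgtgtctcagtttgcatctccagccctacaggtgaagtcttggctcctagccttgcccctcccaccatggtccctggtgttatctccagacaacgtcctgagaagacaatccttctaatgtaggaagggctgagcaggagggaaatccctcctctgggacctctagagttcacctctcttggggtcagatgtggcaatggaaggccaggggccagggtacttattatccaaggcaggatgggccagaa
Cfd: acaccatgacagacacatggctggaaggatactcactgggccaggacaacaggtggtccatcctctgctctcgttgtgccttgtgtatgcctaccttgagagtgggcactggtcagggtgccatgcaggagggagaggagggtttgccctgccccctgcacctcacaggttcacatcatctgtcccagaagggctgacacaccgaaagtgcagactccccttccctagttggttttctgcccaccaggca
Lep: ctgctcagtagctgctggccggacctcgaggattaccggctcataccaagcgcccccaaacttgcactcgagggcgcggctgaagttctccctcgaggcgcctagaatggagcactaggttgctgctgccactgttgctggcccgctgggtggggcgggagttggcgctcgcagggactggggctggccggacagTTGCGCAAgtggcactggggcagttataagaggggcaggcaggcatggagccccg
Ghrh: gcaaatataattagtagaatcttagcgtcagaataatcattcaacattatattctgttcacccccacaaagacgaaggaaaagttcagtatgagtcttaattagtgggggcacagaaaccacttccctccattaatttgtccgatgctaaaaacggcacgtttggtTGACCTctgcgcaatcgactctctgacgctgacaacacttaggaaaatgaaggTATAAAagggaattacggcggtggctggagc

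No motif of the 4 was in all 5 windows, and those of Retn and Cfd held none. Adipoq holds 3 CCAAT matches within the last 34 bases, a motif found in 33.8% of all 32851 RefSeq windows of this length. Lep holds the palindrome TTGCGCAA, 55 to 48 bases before the start; TTGCNNAA is in 9.56% of windows. Ghrh has TATAAA 31 to 26 bases before this start (12.4% of windows) and the reverse complement of AGGTCA 84 to 79 bases before it (14% of windows). The direct repeat of AGGTCA with a spacer of 1 base (DR1), the type of element that PPAR binds with RXR, was in 0 of the 10 windows of the set and in 0.0335% of all windows. Windows were listed for 8 of the 9 genes, not for Rarres2, and a match of letters is a description of the sequence, not of binding.

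Differentiation was the stage at which all 9 genes were highest, with both differentiated libraries above the other 6 in each case, as they were in 21.5% of all 22798 genes. That total includes 3848 genes below 1 in every library. Together the 9 genes made up 0.741% and 0.736% of all pseudo-counts in the differentiated libraries and 0.00794% to 0.0114% in the others. Of the 9, 8 averaged 10 or more pseudo-counts over the 8 libraries and were tested with limma on log2(value + 1), with Benjamini-Hochberg adjustment over all 14647 genes tested. A gene is called changed at an adjusted p under 0.05. All 8 were called higher at differentiation than at clonal expansion, where 36.8% of all genes tested were called higher, and than at quiescence, where 33.4% were. Against proliferation all 8 were higher too, beside 34.5% of all genes. None of the 8 was called lower in these 3 comparisons, where 36.2%, 32.9% and 33.3% of all genes were, in the same order. Of the 8, 2 (Lep and Ghrh) reached the mean of 10 only through their differentiated libraries, so passing the filter already implied a rise. The other 6 averaged 10 or more also over the earlier stages. With libraries scaled to the same total, which lowers the median of all genes against quiescence by 0.23 on the log2 scale, the split of calls over all genes moved from 4892 higher and 4825 lower to 3795 and 6314 against quiescence, and from 5051 and 4876 to 3761 and 6518 against proliferation. The 8 genes were called higher at differentiation in these 3 comparisons under each of the 14 alternative settings tried.

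**Figure D1:**
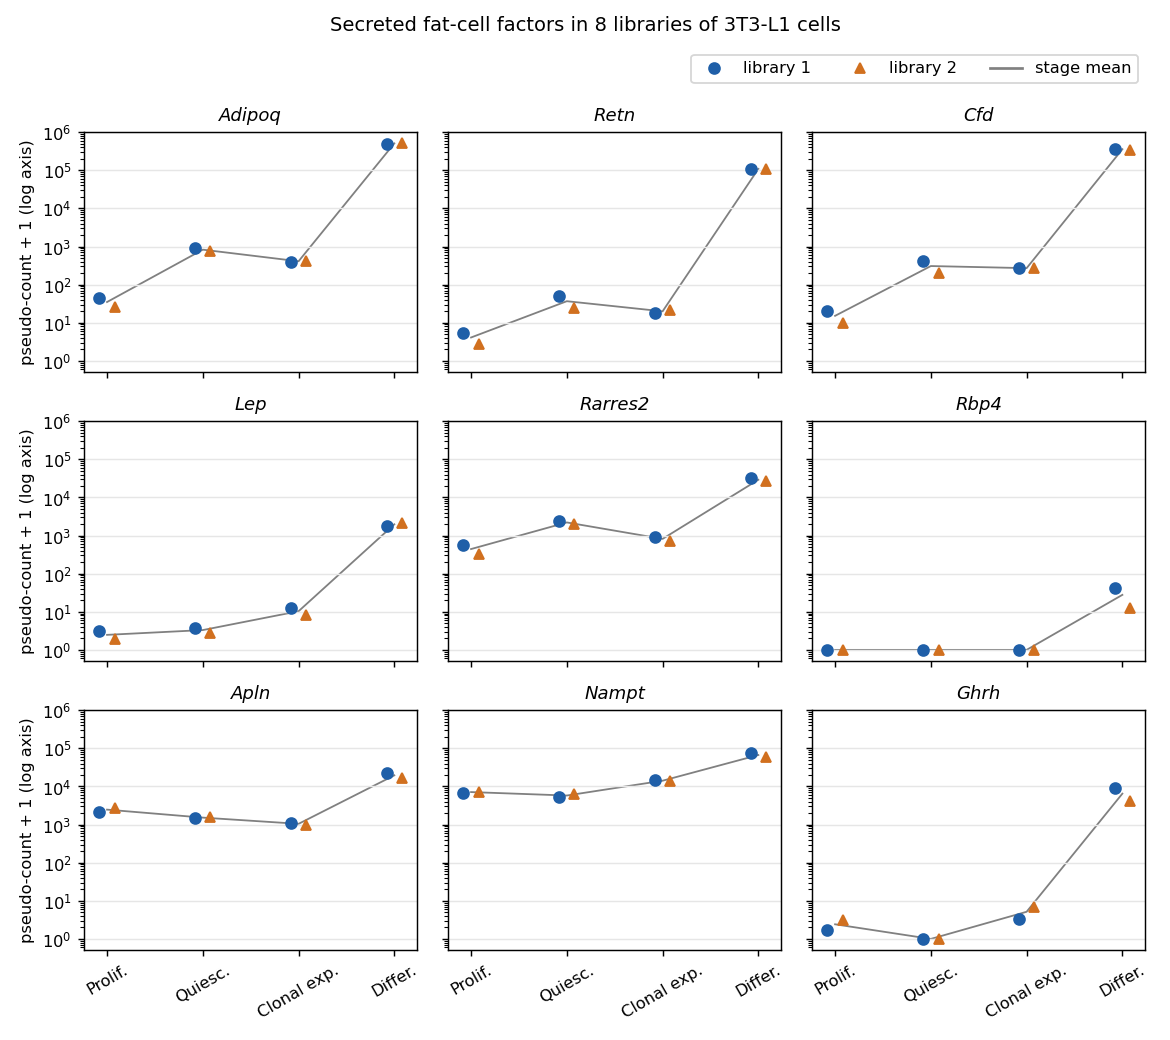
Pseudo-count + 1 (log axis) of each gene in the 8 libraries, by stage, with circles for library 1, triangles for library 2 and a line through the stage means. Differentiated libraries are highest in every panel, Adipoq, Retn, Cfd and Rarres2 also step up at quiescence, and Rbp4 lies at 0 before differentiation.

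Adiponectin had 4 separate levels. Adipoq (gene ID 11450, mm9 chromosome 16, 23146609 to 23158041) was at 42.3 and 25.7 pseudo-counts in the proliferating libraries, 910.2 and 744 in the quiescent ones, 397 and 422 in those of clonal expansion, and 485712 and 532404 after differentiation. No library of a stage overlapped those of another. The transcript rose 24.2-fold at confluence (log2 fold change, log2FC, 4.60 ± 0.21 SE, limma adjusted p = 2.24e-06), the ninth largest rise of all genes tested, before any cocktail was given. It then fell to a fitted 0.498 of the quiescent level by 10 hours after the cocktail (log2FC -1.01 ± 0.21, adjusted p = 0.00157) and rose 1240-fold from there to differentiation (log2FC 10.28 ± 0.21, adjusted p = 4.93e-10).

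Adipsin followed adiponectin, except that the 2 middle stages could not be ordered. Cfd (gene ID 11537, chromosome 10, 79353598 to 79355401) had 19.6 and 8.82 pseudo-counts in proliferating cells, 415 and 198 once they were quiescent, 266 and 273 during clonal expansion, and 365917 and 350608 after differentiation. The clonal expansion libraries lie between the quiescent ones. Cfd rose 20.2-fold at confluence (log2FC 4.34 ± 0.36, adjusted p = 7.14e-05) and its step after the cocktail was not called (log2FC -0.09 ± 0.36, adjusted p = 0.84, 0.125 to 1 over the alternatives). The sign of that step turned with quantile normalization (0.51) and without the first quiescent library (0.44). From clonal expansion to differentiation the rise was 1323-fold (log2FC 10.37 ± 0.36, adjusted p = 7.48e-09).

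Resistin was close to undetected in proliferating cells and among the most abundant of the set after differentiation. Retn (gene ID 57264, chromosome 8, 3655770 to 3659818) began at 4.41 and 1.8 pseudo-counts in proliferating cells, stood at 48.2 and 23.3 in quiescent cells and at 17.1 and 20.8 during clonal expansion, and reached 108747 and 108875 after differentiation. The differentiated libraries were nearly equal, while paired libraries lay further apart in ratio at proliferation and quiescence. The rise at confluence was called (log2FC 3.15 ± 0.38, adjusted p = 0.000417), and so was that from clonal expansion to differentiation (log2FC 12.42 ± 0.38, adjusted p = 3.3e-09), the third largest of all genes tested with this offset. From proliferation to differentiation its log2FC of 14.77 was above that of Cfd (14.62) and Adipoq (13.87), but with an offset of 10 it was below both (13.03 beside 13.89 and 13.52). The lower level at clonal expansion than at quiescence was not called (log2FC -0.80 ± 0.38, adjusted p = 0.0813, 0.00977 to 0.628 over the alternatives). It was called without either proliferating library (adjusted p = 0.0476 and 0.0466), without the second quiescent library (log2FC -1.31, adjusted p = 0.00977) and with equal library totals (log2FC -1.03, adjusted p = 0.0367).

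Chemerin, already expressed in proliferating cells, showed the same order of stages as adiponectin over a smaller span. Rarres2 (gene ID 71660, chromosome 6, 48521782 to 48522669) was at 554 and 329 in the proliferating libraries and at 2365 and 2057 in the quiescent ones, fell back to 926 and 709.9 during clonal expansion, and reached 31645 and 26681 after differentiation, with no overlap between stages. It rose 5.15-fold at confluence (log2FC 2.36 ± 0.23, adjusted p = 0.000159), fell after the cocktail (log2FC -1.44 ± 0.23, adjusted p = 0.00029) and rose 35.8-fold to differentiation (log2FC 5.16 ± 0.23, adjusted p = 3.03e-08). The difference between its 2 lowest stages, clonal expansion over proliferation, was smaller (log2FC 0.92 ± 0.23, adjusted p = 0.00514), and that call was lost without a filter on low values (adjusted p = 0.0693, 0.000319 to 0.0693 over the alternatives).

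Of the 8 genes tested, then, 4 rose from proliferation to quiescence, Adipoq, Cfd, Retn and Rarres2, against 11.9% of all genes, and 1 fell, Apln, against 11.8%. From quiescence to clonal expansion 3 rose, Lep, Nampt and Ghrh, and 3 fell, Adipoq, Rarres2 and Apln, where 34.4% of all genes rose and 34.4% fell, so these shares are near the background. Equal library totals moved the split of calls over all genes in that comparison from 5038 higher and 5033 lower to 3768 and 6302. Between clonal expansion and proliferation 6 were higher and 1 lower, against 32.7% and 32.1% of all genes, and the split over all genes moved from 4792 and 4708 to 3183 and 6400. The plot of the 3 steps shows each change with its standard error.

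**Figure D2:**
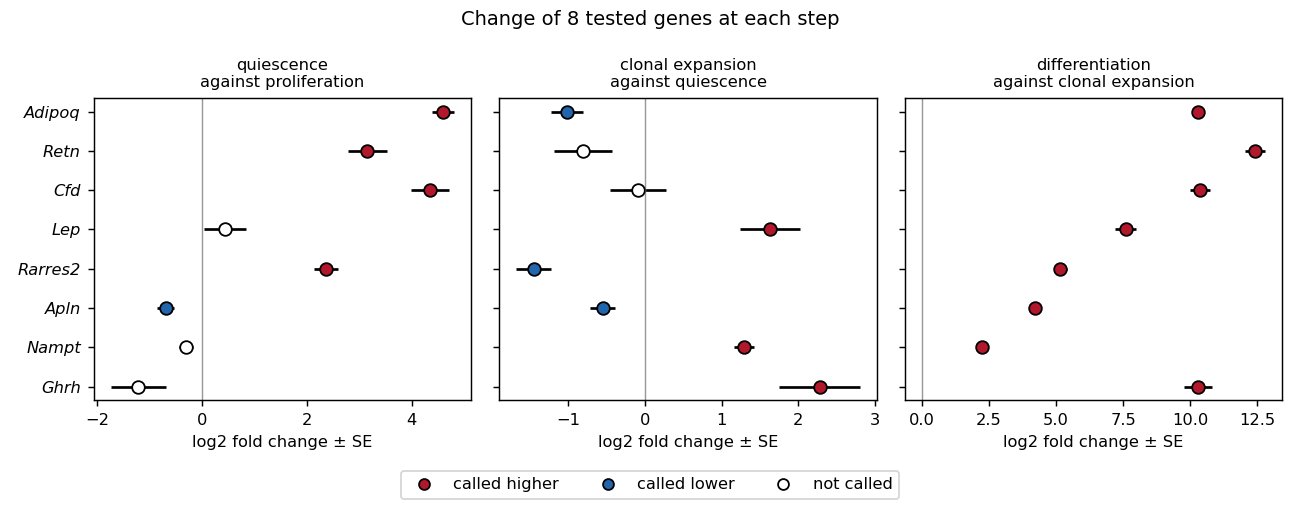
Log2 fold change ± SE of the 8 tested genes from limma on log2(value + 1), for each step between successive stages (red, called higher; blue, called lower; white, not called; the axes differ). The first 2 steps go both ways, and in the last step all 8 lie above 2 on the log2 scale; the values for Ghrh depend on the offset, since it was listed at 0 at quiescence.

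Leptin was almost undetected until differentiation and stayed modest there. Lep (gene ID 16846, chromosome 6, 29010221 to 29023876) had 2.06 and 0.90 pseudo-counts in proliferating cells, 2.80 and 1.83 in quiescent cells, 11.4 and 7.34 during clonal expansion, and 1784 and 2162 after differentiation. Proliferating and quiescent libraries overlapped (log2FC 0.44 ± 0.39, adjusted p = 0.455), whereas both clonal expansion libraries were higher than all 4 of these. That step was called (log2FC 1.63 ± 0.39, adjusted p = 0.00406), at levels under 10 or near it where the offset of 1 understates the change. Lep passed the filter only through the differentiated libraries, and with no filter on low values the step was also called in limma (adjusted p = 0.0215). The rise from clonal expansion to differentiation was 194-fold (log2FC 7.60 ± 0.39, adjusted p = 8.45e-08).

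Growth hormone-releasing hormone was almost undetected in the first 3 stages and abundant in the last. Ghrh (gene ID 14601, chromosome 2, 157155232 to 157172391) was at 0.716 and 2.13 in proliferating cells, listed at 0 in both quiescent libraries, at 2.38 and 5.94 during clonal expansion, and at 8947 and 4044 after differentiation. The 6 libraries before differentiation reach at most 5.94, and the differentiated ones stand far above them but 2.21 times apart from each other. The rise from clonal expansion was called (log2FC 10.28 ± 0.52, adjusted p = 7.53e-08, 5.98e-09 to 0.000333 over the alternatives), and no fold is given against the quiescent 0. The difference between clonal expansion and quiescence, both far under the filter level of 10, was called (adjusted p = 0.00307) but was lost with an offset of 10 (log2FC 0.49, adjusted p = 0.208, 0.000948 to 0.208 over the alternatives). The difference between clonal expansion and proliferation was not called (log2FC 1.06, adjusted p = 0.0987, 0.017 to 0.449 over the alternatives), and was called higher with quantile normalization (log2FC 1.78) and without the first clonal expansion library (log2FC 1.58). The 5 markers of neurons, the cells best known for this peptide, summed to 2615 and 2387 at differentiation and to 916 to 3599 elsewhere. Rbfox3 was at most 2.81 and Stmn2 at most 14.9 in any library, and Tubb3 fell to 27.5 and 44.2 at differentiation. Snap25, a membrane fusion protein of synapses, rose to 2565 and 2309 there from at most 9.53 before (log2FC 7.95 ± 0.58 against quiescence, adjusted p = 1.11e-06). Snap25 too reached the mean of 10 only through its differentiated libraries, so passing the filter already implied a rise. The part of other cells in the Ghrh level was not tested.

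The retinol carrier Rbp4 (gene ID 19662, chromosome 19, 38191110 to 38199811) was listed at 0 in all 6 libraries before differentiation and at 41.8 and 11.8 in the differentiated ones. With a mean of 6.70 over the libraries it was the 1 gene of the set that was not tested. With no filter on low values, its rise from quiescence had an adjusted p of 0.0036 in limma. The 4 markers of liver, the tissue known as the main source of circulating Rbp4, summed to 46.3 and 43.9 at differentiation and to 4.17 to 21.1 before. Of these, Apoa1, an apolipoprotein, rose to 40.9 and 29.6 from 10.8 and 4.47 at quiescence (log2FC 2.16 ± 0.55, adjusted p = 0.00576), and Serpina1a was at most 10.2. Apoa1 reached the mean of 10 only through its differentiated libraries, so passing the filter already implied a rise. Ttr, the partner of Rbp4 in blood, was listed at 0 in every library and Alb was at most 4.73. The part of other cells in the Rbp4 level was not tested.

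Nampt and Apln, both at 978 or more in every library, changed least at differentiation and moved apart after the cocktail. Nampt (gene ID 59027, chromosome 12, 33505200 to 33538234) had 6909 and 7367 pseudo-counts in proliferating cells, 5375 and 6216 in quiescent cells, 14547 and 13822 during clonal expansion, and 75047 and 58890.3 after differentiation. Quiescent libraries were both below the proliferating ones, a difference that was not called (log2FC -0.30 ± 0.13, adjusted p = 0.117). Nampt then rose 2.45-fold by 10 hours after the cocktail (log2FC 1.29 ± 0.13, adjusted p = 1.28e-05) and 4.69-fold further to differentiation (log2FC 2.23 ± 0.13, adjusted p = 1.76e-07). Gdap10 lies within the span of Nampt in the table (33508981 to 33511773), and in unstranded libraries reads of the 2 genes cannot be told apart where their exons overlap. Gdap10 had 79.2 to 544 pseudo-counts before differentiation and 3293 and 2705 there.

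Apelin was the 1 gene of the set called lower in quiescent than in proliferating cells, and it was lowest at clonal expansion. Apln (gene ID 30878, chromosome X, 45378323 to 45388029) was at 2189.9 and 2753 in proliferating cells, 1492 and 1558 in quiescent cells, 1115 and 978 during clonal expansion, and 22532 and 16735 after differentiation, with no overlap between stages. The fall at confluence was called (log2FC -0.69 ± 0.16, adjusted p = 0.014, 0.0107 to 0.139 over the alternatives) but was lost without the second proliferating library (log2FC -0.52, adjusted p = 0.139) and without a filter (adjusted p = 0.109). The further fall after the cocktail was called (log2FC -0.54 ± 0.16, adjusted p = 0.0129, 0.00174 to 0.131 over the alternatives) but was lost without the second clonal expansion library (log2FC -0.45, adjusted p = 0.0818), without a filter (adjusted p = 0.0821) and with quantile normalization (log2FC -0.30, adjusted p = 0.131). The fall over both steps was called in all 14 alternatives (clonal expansion against proliferation, log2FC -1.23 ± 0.16, adjusted p = 0.000105). From clonal expansion to differentiation Apln rose 18.6-fold (log2FC 4.22 ± 0.16, adjusted p = 1.39e-08).

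Read as orders of level, Adipoq and Rarres2 ran from proliferation through clonal expansion and quiescence to differentiation, with every neighbouring pair called. Retn and Cfd had the same order of means, with clonal expansion and quiescence not separated. Lep ran proliferation, quiescence, clonal expansion, differentiation, with the first 2 not separated. Ghrh ran quiescence, proliferation, clonal expansion, differentiation, with the first 3 not separated between neighbours. Nampt had the same order as Ghrh, with the first 2 not separated, and Apln ran clonal expansion, quiescence, proliferation, differentiation.

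Likeness to other genes was measured as the root mean square difference between log2 profiles over the 8 libraries, each centred on its own mean, as a description of profiles that share their libraries. Among the nearest to Adipoq were Cidec, a lipid droplet protein (0.67), and Slc36a2, an amino acid transporter (0.76). Cfd was nearest to Cidec (0.37), and it lay 0.48 from Adipoq. Retn was nearest to Pnpla3, adiponutrin (0.71), and Lep to Cyp2ab1, a cytochrome P450 (0.41), and Elovl3, a fatty acid elongase (0.43). For Rarres2 the nearest genes included Cebpa, a transcription factor of fat cell formation (0.44), behind Fmo4, a flavin monooxygenase (0.40). Closest to Nampt were Bcl6, a transcriptional repressor (0.13), Fam73b (0.17) and Idh3a, a citric acid cycle enzyme (0.18), and closest to Apln was Pfkfb1, a regulator of glycolysis (0.15). The nearest gene to Ghrh was Pygl, liver glycogen phosphorylase, at 0.73. Small distances are easier to reach for profiles of small range, so these distances are not comparable between Nampt and Retn.

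Per kilobase of transcript, the scale on which genes can be compared with each other, adiponectin and adipsin were among the most abundant transcripts of the differentiated cells. Of 20260 genes with a known length, Adipoq ranked 4 (394008 pseudo-counts per kb) and Cfd ranked 5 (388571 per kb) at differentiation, up from ranks 7730 and 8952 at quiescence. Retn ranked 45 (95532 per kb), Rarres2 ranked 182 (36683 per kb) and Nampt ranked 582 (14793 per kb). Ghrh, with a transcript of 516 nt, ranked 702 (12588 per kb), above Apln at rank 1568 (6235 per kb). Lep was far lower, at rank 7813 (605 per kb), and Rbp4 was at rank 11696 (23.1 per kb). At quiescence the highest of the set was Rarres2 (2781 per kb), followed by Nampt (1280.2 per kb).

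**Figure D3:**
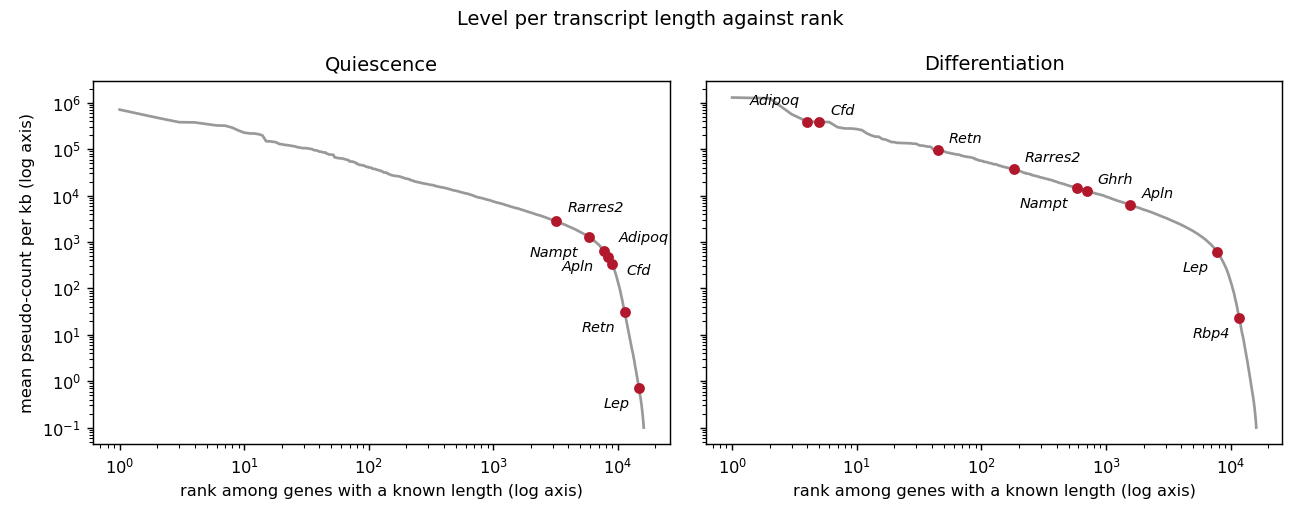
Mean pseudo-count per kb of transcript against rank (both log axes) for genes with a known length, at quiescence (left) and differentiation (right). The grey line is all genes and points are the secreted factors; Adipoq and Cfd move from ranks 7730 and 8952 to 4 and 5, while Lep moves from rank 14728 to 7813.

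The receptors of these hormones moved in both directions, most of them less than the tested genes of the set. From quiescence to differentiation, Cmklr1 (log2FC 3.56) and C3ar1 (log2FC -5.04) moved more than Nampt (log2FC 3.52). C3ar1 binds the C3a peptide and no product of the set, and is counted among the receptors here. Of 14 receptor or binding protein symbols listed, 13 were in the table and 10 were tested. From quiescence to differentiation 5 rose and 4 fell, where 33.4% and 32.9% of all genes did, with a median log2FC of 0.24 beside 0.01 for all genes tested. Adipor2, a seven-pass receptor of adiponectin, was at 12048 and 11389 at quiescence and at 135821 and 112358 at differentiation (log2FC 3.40 ± 0.12, adjusted p = 1.32e-08), having begun to rise by clonal expansion (32712 and 27329). Adipor1 rose less, from 18909 and 16039 to 27438 and 25235 (log2FC 0.59 ± 0.11, adjusted p = 0.000745). Cdh13, T-cadherin, which binds large adiponectin multimers, fell from 10598 and 11210 to 3282 and 3514 (log2FC -1.68 ± 0.11, adjusted p = 4.08e-07).

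The chemerin receptor Cmklr1 rose at both steps after quiescence, in the first of which its ligand Rarres2 fell. It went from 17.6 and 13.4 at quiescence to 92.3 and 96.2 during clonal expansion and then to 164 and 224 after differentiation (log2FC 3.56 ± 0.28 for differentiation against quiescence, adjusted p = 2.09e-06). It stayed at low levels, and the other chemerin binders Gpr1 and Ccrl2 were too low to test, at most 10.4 and 2.82. The leptin receptor Lepr rose slightly, from 81.5 and 81.7 to 150 and 118 (log2FC 0.70 ± 0.24, adjusted p = 0.0267). Aplnr, the apelin receptor, was at 48.1 and 23.8 at differentiation against 39.0 and 35.1 at quiescence, an overlap, and was not called (adjusted p = 0.807). Ghrhr, the receptor of growth hormone-releasing hormone, was at 0.00644 and 1.03 at differentiation and at most 12.5 in any library. Stra6, the membrane receptor of Rbp4, fell from 19.0 and 20.9 to 3.13 and 7.58 (log2FC -1.81 ± 0.56, adjusted p = 0.016). It was already at 0.91 and 3.47 during clonal expansion. Of the proposed resistin receptors, Tlr4 rose from 1858 and 2695 to 3984 and 3709 (log2FC 0.78 ± 0.17, adjusted p = 0.00233). Between these stages Tlr4 was lower, at 449 and 505 during clonal expansion. Cap1, also proposed, fell from 45467 and 39066 to 22047 and 22022 (log2FC -0.94 ± 0.10, adjusted p = 2.36e-05). C3ar1, which binds the C3a peptide that the alternative pathway generates, fell from 88.7 and 75.1 to 2.09 and 1.03 (log2FC -5.04 ± 0.38, adjusted p = 1.16e-06).

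**Figure D4:**
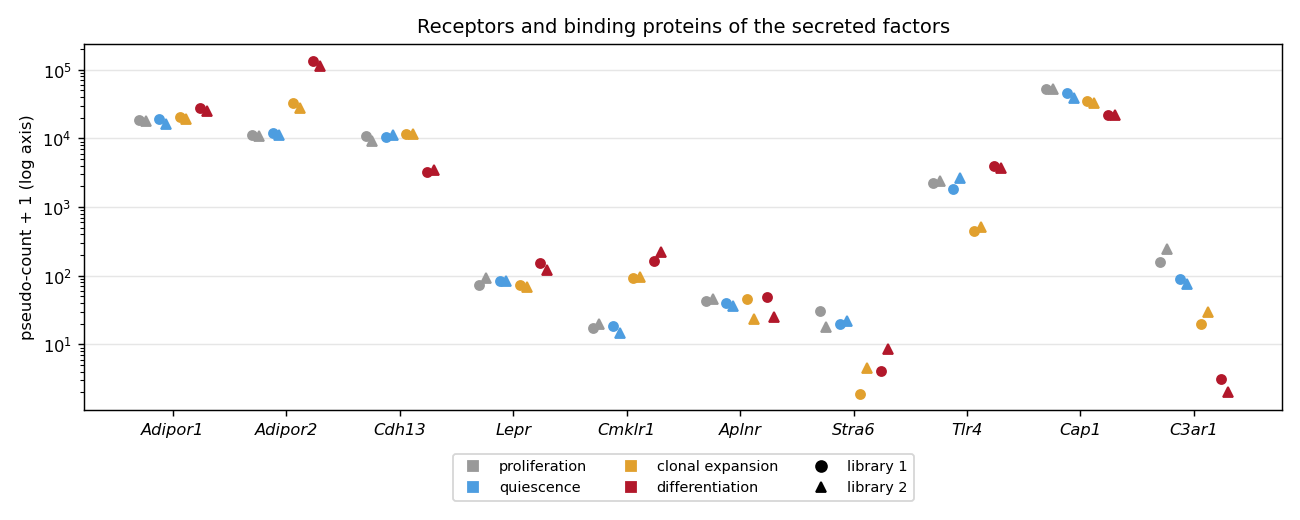
Pseudo-count + 1 (log axis) of the 10 tested receptors and binding proteins in each library (colours, stages; circles, library 1; triangles, library 2). Adipor2 and Cmklr1 climb at clonal expansion and again at differentiation, Cdh13, Cap1 and C3ar1 are lowest at differentiation, and the stages of Aplnr overlap.

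Among genes that act with the hormones, changes from quiescence to differentiation went both ways in each list, to be read beside the 33.4% of all genes that rose and the 32.9% that fell. Of 12 genes for adiponectin assembly and secretion, all tested, 6 rose and 1 fell (median log2FC 0.41). Ero1l, the oxidase that forms disulfide bonds and promotes adiponectin release, was at 5957 and 7588 at quiescence and at 249037 and 127391 at differentiation (log2FC 4.73 ± 0.25, adjusted p = 1.24e-07). Plod1, a collagen lysyl hydroxylase, rose (log2FC 1.61), as did Gstk1, also called DsbA-L (log2FC 1.41), while Pdia3, a disulfide isomerase, fell (log2FC -0.68).

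Of the NAD genes around Nampt, 10 of 16 tested rose and 3 fell (beside 33.4% and 32.9% of all genes, median log2FC 0.80). The largest rises were in Nt5e, an ecto-nucleotidase, from 24.2 and 58.0 to 1256 and 440.4 (log2FC 4.27), Bst1, an NAD-cleaving enzyme (log2FC 3.06), and Nnmt, which methylates nicotinamide (log2FC 2.11). Nmnat2 (log2FC -1.20), Naprt1 (log2FC -0.77) and Sirt1 (log2FC -0.50) fell. Around Cfd, 4 of 9 tested genes of the alternative complement pathway rose and 1 fell (median log2FC 0.36), led by Cfi, the protease that degrades C3b (log2FC 5.53), and C3, the central component, from 78588 and 85276 to 1279949 and 1510945 (log2FC 4.09), with Cd55, which protects cells from the pathway (log2FC 0.89). Masp1 fell (log2FC -2.51). Cfi, at most 6.52 before differentiation, reached the mean of 10 only through its differentiated libraries, so passing the filter already implied a rise.

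Of 16 tested genes of retinol handling, 7 rose and 6 fell (beside 33.4% and 32.9% of all genes, median log2FC 0.02), which is near the background. The aldehyde dehydrogenase gene Aldh1a7 rose most (log2FC 8.07), followed by Bcmo1, which cleaves beta-carotene (log2FC 3.80), and Aldh1a1 (log2FC 3.56), whereas Aldh1a3 (log2FC -4.16) and Cyp26b1 (log2FC -2.97) were among those that fell. In the growth hormone axis 2 of 8 tested genes rose and 3 fell (median log2FC 0.12): the growth hormone receptor Ghr (log2FC 0.47) and Stat5a (log2FC 0.72) rose, and Igf1 (log2FC -2.28), Igfbp3 (log2FC -1.57) and Socs2 (log2FC -1.35) fell. Of regulators of fat cell genes 10 of 20 rose and 4 fell (median log2FC 0.53), with the largest rises in Klf15 (log2FC 10.13), Nr1h3 (log2FC 4.60) and Cebpa (log2FC 4.22) and the largest falls in Gata2 (log2FC -4.45), Gata3 (log2FC -2.01) and Klf4 (log2FC -1.81).

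Other secreted factors moved in both directions. Of 43 tested genes for other secreted fat-cell factors, 18 rose and 18 fell from quiescence to differentiation (median log2FC -0.23), where 33.4% and 32.9% of all genes did. Retnla, a relative of resistin, rose most (0 and 0.936 to 2282 and 809.5), followed by Hp, haptoglobin (log2FC 9.54 ± 0.32, adjusted p = 7.31e-09), and Orm1, an acute-phase protein (log2FC 7.91 ± 0.30). The largest falls were in Nov (log2FC -5.09 ± 0.33), Ccl2, a monocyte chemoattractant (log2FC -4.75 ± 0.19), and Wisp2 (log2FC -2.85 ± 0.23).

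The differentiated libraries differed from each other more for some of the hormones than for most genes. Over the 9645 genes averaging 1000 or more there, the median absolute log2 difference was 0.099. Ghrh was 2.21 times higher in library 1, the second largest excess of that library among those genes, and Apln (1.35 times), Nampt (1.27) and Rarres2 (1.19) ranked 159, 292 and 717. Adipoq (0.91 times), Retn (1.00), Cfd (1.04) and Lep (0.83) were not raised in library 1. The lipid droplet proteins Plin1 and Cidec were 0.92 and 0.86 times as high in library 1, and Ero1l was 1.95 times as high. Rbp4, below that level, was 3.53 times higher in library 1.

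**Figure D5:**
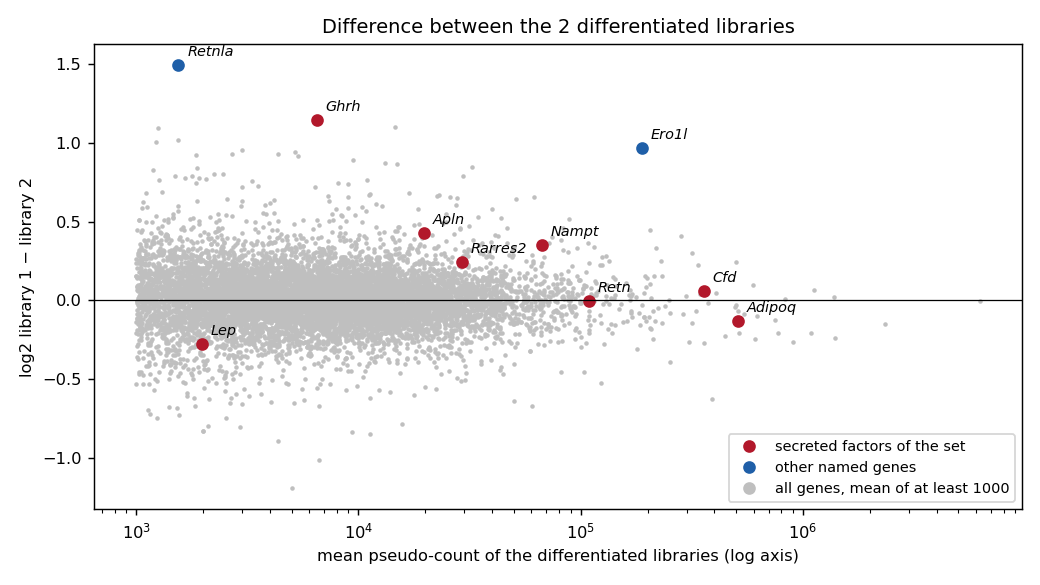
Log2 difference between the 2 differentiated libraries against their mean pseudo-count (log axis) for genes averaging 1000 or more (grey), the secreted factors (red) and the 2 other named genes Ero1l and Retnla (blue). Ghrh stands at 1.15 and Apln and Nampt at 0.43 and 0.35, whereas Adipoq (-0.13), Retn (0.00) and Cfd (0.06) lie near 0 and Lep is at -0.28.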

How the data were processed

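The libraries were unstranded TruSeq RNA libraries from total RNA, read as 100 nt single reads, per the labels' protocols. The deposited table gives 1 signal per gene and library, pseudo-counts that the authors made with edgeR and relative log expression factors, per the file's name, and CASAVA 1.8.2 and mm9 are named in the submitters' processing notes. The aligner and gene models are not given in the sources used here. The values are not raw counts, so no count model was used.

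Python 3.11.15 (pandas 2.3.3, numpy 2.4.6) read the values, and limma 3.58.1 in R 4.3.3 was used to fit a linear model with 1 term per stage to log2(value + 1) in the 8 libraries together, its variance prior following mean level (4 residual degrees of freedom, 9.78 with those borrowed across genes). Genes with a mean of at least 10 were tested, 14647 in all, in the 6 pairs of stages, two-sided, with Benjamini-Hochberg adjustment at 0.05. The fit was tested on simulated data. Fold changes are on the log2(value + 1) scale and are understated for low genes.

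The members and lists were chosen with earlier results of these data known. All 9 genes are named; of each list, up to 3 largest rises and falls from quiescence to differentiation and all receptors; for likeness, up to 3 nearest genes. Some genes that these rules name are not reported here. Alternatives were an offset of 10, no filter or a mean of at least 50, equal totals, quantile normalization, a replicate block and leaving out each library. Lengths are of the longest GENCODE M21 transcript matched to RefSeq. Promoters are from RefSeq, GRCm38.p6. Same-numbered libraries had deviations correlated at 0.013 to 0.354 between stages, over 0.1 in 2 of the 6 pairs of stages and highest for quiescence with clonal expansion. The main fit had no term for the number, and the replicate block among the alternatives did.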

Additional observations from a re-analysis of the deposited data

How the results depend on the processing

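Of 672 values of single genes recomputed under 14 alternatives, 657 kept their direction and their side of the threshold, 7 lost a call, 6 gained one and 2 changed sign. The sign changes were both in Cfd from quiescence to clonal expansion, 0.51 with quantile normalization and 0.44 without the first quiescent library, in a range of -0.62 to 0.44 when 1 library was left out; the cause was not tested. For quiescence against proliferation, 3472 genes were called, 1757 without a filter on low values, and 1304 to 3536 when 1 library was left out, the lowest without the second proliferating library. The genes of the set called lower there numbered 1, but 0 without a filter and 0 to 1 when 1 library was left out. With a replicate block the counts over all genes were 4005 for quiescence over proliferation, 10378 for clonal expansion over quiescence, 9854 for clonal expansion over proliferation, and 10931, 10068 and 10209 for differentiation over clonal expansion, quiescence and proliferation, and no call of the set changed under the block. Of the set, the genes called higher from quiescence to clonal expansion went from 3 to 2 with an offset of 10, and those called lower from 3 to 2 without a filter, with quantile normalization and without the second clonal expansion library, and to 4 with equal totals and without either proliferating library or the second quiescent one. Outside quiescence against proliferation, the count of all genes called, both directions together, moved by less than 1.5 times. Pseudo-counts near 0 limit Lep, Ghrh, Retn and Rbp4 before differentiation.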

Other observations

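Among the genes with the largest excess in the first differentiated library over the second, listed after their values were seen, were Retnla (2282 and 809.5 pseudo-counts), Ghrh (8947 and 4044), Krt18, a keratin (1711 and 801), Car9, a carbonic anhydrase (2065 and 1019.8), Ier3 (1634 and 814) and Ero1l (249037 and 127391). Among the 9645 genes averaging 1000 or more there, 6 (0.0622%) were over 1 on the log2 scale. Retnla, unlike Retn, was already at 976 and 706 at clonal expansion, from 0 and 0.936 at quiescence.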
